A study of Rattus norvegicus with 10 samples.

Results

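The 10 genes described here encode enzymes and helper proteins that fold, modify and cross-link collagen: the prolyl 4-hydroxylase subunits P4ha1, P4ha2 and P4hb, the lysyl hydroxylases Plod1, Plod2 and Plod3, the collagen chaperone Serpinh1, the procollagen proteinase enhancer Pcolce, and the lysyl oxidase-like enzymes Loxl2 and Loxl3. They were read by gene symbol, as 10 of the 22081 genes in the deposited table. The set follows the known roles of the genes and was drawn up with earlier results of these data in view. Each was read in 5 rupture-prone intracranial aneurysm (IA) lesions and in 5 samples of what remained of the circle of Willis, and each group holds the numbers 4 to 8. Both groups came from wild-type female Sprague-Dawley rats operated on at 10 weeks of age, and the tissue was taken 63 days later. All animals had bilateral ovariectomy and ligation of the left carotid, right external carotid, right pterygopalatine and left renal arteries, and all were fed a high-salt diet with 3-aminopropionitrile. This compound inhibits lysyl oxidase, which cross-links collagen and elastin, and both groups were exposed to it. Samples of the circle of Willis are the rest of the arterial ring of operated animals and not arteries of untreated ones. The study defined rupture-prone lesions by their place, at the anterior or posterior communicating artery, and both tissues were dissected from the same animal and homogenised whole. The question was which of these genes differ between the lesion and the rest of the ring.

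Collagen chains are made in the endoplasmic reticulum, where prolyl 4-hydroxylase turns prolines into hydroxyprolines that hold the triple helix together, and lysyl hydroxylases prepare the lysines used for cross-links and sugar chains. The chaperone encoded by Serpinh1, known as HSP47, binds the folded helix on its way out of the cell. Outside, Pcolce speeds the removal of the C-terminal propeptide, and enzymes of the lysyl oxidase family oxidise lysines so that fibrils become cross-linked. In the artery wall, fibroblasts of the adventitia and smooth muscle cells are the usual makers of fibrillar collagen.

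The libraries differed in depth and breadth. Each aneurysm had 4513515 to 7352626 reads assigned to genes and each circle of Willis sample had 3017269 to 5692715, of which 35.7 to 49.8% and 32.8 to 47.1% lay in introns. Genes with at least 10 exon reads numbered 743 in aneurysm 8 and 7590 in aneurysm 5, against 3190 to 3660 in the other lesions, while the circle of Willis samples had 2664 to 4225. Aneurysm 8 also had a TMM scaling factor of 0.282, with 0.759 to 1.57 in the other libraries, and had 0 reads of the smooth muscle actin gene Acta2. Myh11, the smooth muscle myosin, was read in all 10 samples (482 to 4462 reads). An enzyme's fold change over gene reads has its value without aneurysm 5 or 8 beside it where direction or call changed. The same holds where it moved by over 1.5 times. For fold changes of other genes, and for those over exon reads, no such values are given, and single samples may carry them. No source used here ties the tissues of an animal to a shared number, so the tests treat the groups as independent, and p-values speak only for the scatter of these 10 samples, some of which may be technical.

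None of the enzymes passed the test between the groups, although all 8 that could be tested had higher fitted levels in the aneurysms (7 of 8 by limma-voom and 6 of 8 without aneurysm 5). By edgeR's quasi-likelihood test with Benjamini-Hochberg adjustment over 7615 genes, 0 of 8 had an adjusted p under 0.05, where 0.158% of all genes tested did (0.118% with a higher level in the aneurysms). DESeq2, which gave no adjusted p for P4ha2 and Plod3, and limma-voom also called none. At an unadjusted p under 0.05 there were 2 of 8, Serpinh1 and P4ha1, both higher in the aneurysms, against 5.73% of all genes in either direction and 3.3% in that one, and without aneurysm 5 there were 0. The fitted log2 fold changes of the 8 ran from 0.81 for P4hb to 2.53 for Serpinh1, with a median of 1.58. The median over all genes tested was 0.13, with 54.2% of genes positive, and 13.7% of them lay above the median of the enzymes. Plod1 and Loxl3 did not pass the filter on low counts and are described by their reads. At least 10 gene reads of Plod1 were seen in 1 aneurysm and 2 circle of Willis samples, and of Loxl3 in 1 of each. In tissue ground up whole, fewer cells of a type and less RNA per cell cannot be told apart.

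**Figure D1:**
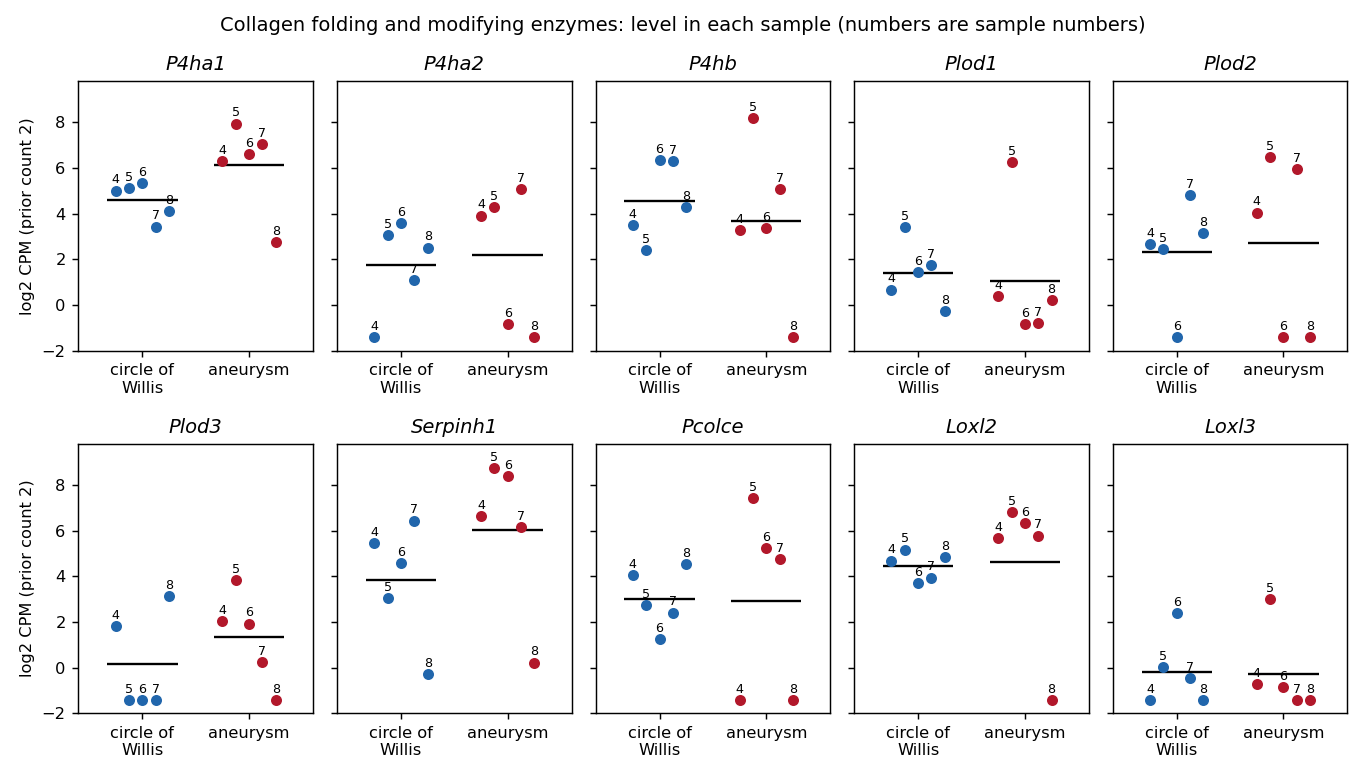
Level of each of the 10 enzymes in each sample, on the vertical axis as log2 CPM (prior count 2), with the circle of Willis in blue, the aneurysms in red, sample numbers beside the points and a bar at each group mean. Aneurysm 5 was the highest of all 10 samples for 9 of the 10 genes, aneurysm 8 lay at or near the floor for most, and the groups overlapped for every gene.

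**Figure D2:**
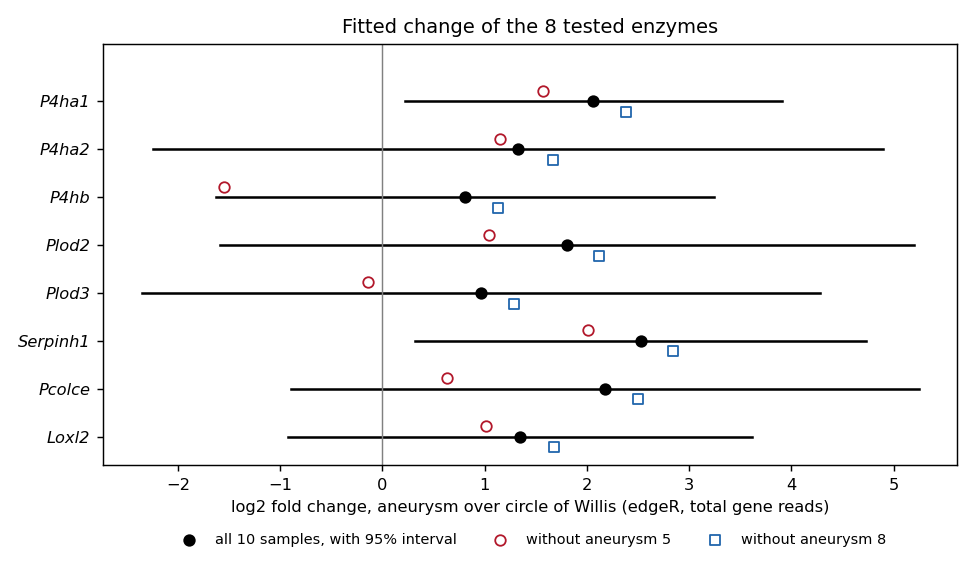
Fitted log2 fold change of the 8 tested enzymes, aneurysm over circle of Willis, from edgeR on total gene reads, with the 95% interval of the fit to all 10 samples as a line and the values without aneurysm 5 (circles) or aneurysm 8 (squares). The intervals of Serpinh1 (0.32 to 4.73) and P4ha1 (0.22 to 3.91) lay above 0 before adjustment, and P4hb and Plod3 were below 0 without aneurysm 5.

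Serpinh1 (chr1:164301009-164308317, Rnor6) had the highest fitted log2 fold change of the 8. The aneurysms numbered 4 to 8 had 99.0, 428, 336, 70.7 and 0.791 CPM, the unit of reads scaled to a common library size with TMM factors. The circle of Willis samples, in the same order, had 43.6, 7.83, 23.7, 86.1 and 0.445 CPM. Aneurysms 4, 5 and 6 thus lay above every circle of Willis sample, aneurysm 7 lay below circle of Willis 7, and both samples numbered 8 had a single read. The means were 186.9 ± 184.5 and 32.3 ± 34.3 CPM (SD, n = 5 each), with a log2 fold change of 2.53 (standard error 1.08, edgeR adjusted p = 0.735). A two-sided exact permutation test of mean log2 CPM gave p = 0.278, where the smallest p that 5 against 5 samples can give is 0.00794. Without aneurysm 8 the permutation p was 0.0397, and without aneurysms 5 and 8 it was 0.0893. In exon reads alone the aneurysms had 248, 4574, 1216, 126 and 0 and the circle of Willis 41, 34, 66, 32 and 1, so that 4 of 5 aneurysms exceeded every circle of Willis sample in raw exon reads. The fit to exon reads gave a log2 fold change of 3.36 (standard error 1.36, edgeR adjusted p = 0.615), and none of the 4 enzymes tested on exon reads passed, where 0.539% of genes did. On exon reads the exact permutation p was 0.294, and 0.00794 without aneurysm 8, the smallest that 4 against 5 samples can give. Aneurysm 8 was singled out with the values in view. The share of all genes separated in this way in exon reads was not computed.

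The promoters of Serpinh1, P4ha1 and Plod2 are shown because the first has the highest fitted log2 fold change, the second the next lowest p and the third no exon read in the circle of Willis. The sequences are the 250 bases before the RefSeq gene start in assembly GRCr8, read 5′ to 3′ on the gene's strand at chr1:163062977-163063226 (minus strand), chr20:27844796-27845045 (plus strand) and chr8:101964068-101964317 (plus strand). Capitals mark ACGTG or its reverse complement CACGT, a form of the core bound by hypoxia-inducible factors, and GAANNTTC, a pair of the units bound by heat shock factor.
Serpinh1: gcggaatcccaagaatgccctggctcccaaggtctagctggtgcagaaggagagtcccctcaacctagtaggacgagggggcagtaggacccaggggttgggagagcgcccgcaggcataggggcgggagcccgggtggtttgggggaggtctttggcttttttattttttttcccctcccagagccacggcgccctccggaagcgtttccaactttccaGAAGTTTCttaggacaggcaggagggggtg
P4ha1: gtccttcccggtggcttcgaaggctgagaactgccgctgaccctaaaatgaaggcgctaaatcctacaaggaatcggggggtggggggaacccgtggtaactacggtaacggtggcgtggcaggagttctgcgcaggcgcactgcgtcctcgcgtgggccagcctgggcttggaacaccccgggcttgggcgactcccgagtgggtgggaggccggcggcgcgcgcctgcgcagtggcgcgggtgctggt
Plod2: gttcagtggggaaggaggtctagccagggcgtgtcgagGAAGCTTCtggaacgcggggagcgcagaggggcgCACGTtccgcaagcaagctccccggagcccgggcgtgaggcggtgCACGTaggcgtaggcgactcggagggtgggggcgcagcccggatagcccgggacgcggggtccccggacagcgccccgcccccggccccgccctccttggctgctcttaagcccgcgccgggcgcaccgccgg
Serpinh1 had GAANNTTC 30 to 23 bases before its start. Plod2 had the same letters 212 to 205 bases before, and the ACGTG core on the opposite strand 178 to 174 and 133 to 129 bases before. P4ha1 had no match to either set of letters. Other forms of these sites, such as GCGTG, were not searched for in any promoter. Promoters of 9 of the 10 genes were matched, all except Loxl2. GAANNTTC was found in 4 of these 9 (P4hb, Plod1, Plod2 and Serpinh1) and in 7.02% of 27457 promoters of the same length. ACGTG on either strand was found in 2 of 9 (P4ha2 and Plod2), against 16.9% of all promoters. These matches describe the letters and say nothing of whether a factor was bound.

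P4ha1 and P4ha2 encode alternative catalytic subunits of prolyl 4-hydroxylase, and P4hb encodes its second subunit, which is also protein disulfide isomerase. P4ha1 (chr20:28920615-28971966, Rnor6) had 78.5, 244, 95.9, 132 and 6.33 CPM in aneurysms 4 to 8. It had 31.8, 34.5, 39.6, 10.4 and 16.9 CPM in circle of Willis samples 4 to 8. Aneurysms 4 to 7 each lay above every circle of Willis sample and aneurysm 8, with 8 reads, below all of them. The means were 111 ± 87.2 and 26.6 ± 12.4 CPM (SD, n = 5 each), with a log2 fold change of 2.06 (standard error 0.90, edgeR adjusted p = 0.766). The two-sided exact permutation p was 0.151 over all 10 samples and 0.230 without aneurysm 5. Without aneurysm 8 it was 0.00794, the smallest that 4 against 5 samples can give, while the edgeR adjusted p of that fit was 0.175. The separation did not hold in exon reads. All 669 reads of aneurysm 4 lay in introns, the aneurysms had 0, 2202, 530, 478 and 0 exon reads, and the circle of Willis samples had 34, 19, 0, 24 and 0. Aneurysms 5 to 7 alone were above the circle of Willis samples in exon reads (exact permutation p = 0.381, and 0.222 without aneurysm 8). Aneurysm 8 was singled out with these values in view, and in gene reads 2.19% of the genes then tested had every aneurysm above every circle of Willis sample.

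P4ha2 (chr10:39435226-39464188, Rnor6) was read far less than P4ha1. The 5 aneurysms had 125, 207, 1, 163 and 0 reads, and the circle of Willis samples had 0, 38, 40, 10 and 12. Aneurysms 4, 5 and 7 were above every circle of Willis sample after scaling (14.7, 19.1 and 32.9 CPM against at most 11.6 CPM), aneurysm 6 was below all of them but sample 4, and aneurysm 8 and circle of Willis 4 had 0 reads. P4ha2 was the only one of the 10 genes whose highest sample was not aneurysm 5. Its log2 fold change was 1.33 (standard error 1.74, 95% interval -2.24 to 4.90, edgeR adjusted p = 0.999).

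P4hb (chr10:109736457-109747987, Rnor6) had 9.26, 287, 9.92, 33.1 and 0 CPM in the aneurysms. The circle of Willis samples had 10.8, 4.87, 80.9, 78.2 and 19.1 CPM. Only aneurysm 5 was above the circle of Willis samples, with 3111 of the 3409 aneurysm reads, aneurysms 4, 6 and 7 lay within their range, and aneurysm 8, with 0 reads, lay below it. The log2 fold change of 0.81 (standard error 1.19, edgeR adjusted p = 0.999) became -1.55 without aneurysm 5 and -1.12 without aneurysms 5 and 8.

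The lysyl hydroxylases had at least 10 exon reads in few samples, at most 3 aneurysms and 1 circle of Willis sample for any of them. Plod2 (chr8:99977333-100059736, Rnor6), whose product is known for hydroxylating the telopeptide lysines used in cross-links, had 137, 951, 0, 305 and 0 gene reads in the aneurysms. It had 34, 24, 0, 158 and 19 gene reads in the circle of Willis, and every one of these 235 reads lay in an intron. Aneurysms 5 and 7 were above all circle of Willis samples after scaling (87.7 and 61.6 CPM against at most 27.9 CPM), and they alone held its exon reads, with 612 and 109. The log2 fold change over gene reads was 1.80 (standard error 1.66, 95% interval -1.59 to 5.20, edgeR adjusted p = 0.999) and 1.05 without aneurysm 5. The two-sided exact permutation test gave p = 0.881 for gene reads and p = 0.444 for exon reads.

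Plod1 (chr5:164720586-164747083, Rnor6), the hydroxylase of lysines within the helix, had 825 reads in aneurysm 5, of which 823 were exonic, and 1 to 8 in each of the other aneurysms. In the circle of Willis it had 7, 48, 8, 17 and 1. Aneurysm 5 thus held 98.7% of the aneurysm reads of Plod1, and the other 4 aneurysms were at or below 0.938 CPM. Fitted without the filter on low counts, its log2 fold change was 2.23 (standard error 2.01, edgeR adjusted p = 0.679), in a fit that called 0.778% of genes, and it became -2.67 without aneurysm 5.

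Plod3 (chr12:22716422-22726982, Rnor6), which also adds the sugars of hydroxylysine, had 32, 152, 19, 4 and 0 reads in the aneurysms. The circle of Willis samples had 18, 0, 0, 0 and 19 reads. The groups overlapped, with aneurysm 5 again highest. The log2 fold change was 0.96 (standard error 1.62, edgeR adjusted p = 0.999) and became -0.14 without aneurysm 5. Plod3 was the only one of the 10 whose span overlaps another gene of the table, Znhit1, and the strand setting of the counting is not given in the sources used here, so its few reads are uncertain.

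Pcolce (chr12:22153982-22160337, Rnor6) was present in some lesions and absent from others. The aneurysms had 0, 172, 37.0, 26.6 and 0 CPM. The circle of Willis samples had 16.3, 6.35, 2.02, 4.94 and 22.7 CPM. Aneurysms 5, 6 and 7 were above every circle of Willis sample, and aneurysms 4 and 8, with 0 reads, were below every one. The log2 fold change was 2.17 (standard error 1.50, 95% interval -0.90 to 5.24, edgeR adjusted p = 0.999), was 0.64 without aneurysm 5 and was -0.25 by limma-voom. The exact permutation p, which is two-sided, was 0.968.

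Loxl2 (chr15:51303908-51365234, Rnor6), an oxidase known for cross-linking collagen IV, had the smallest SD relative to its mean of the 10 genes in both groups. Aneurysms 4 to 8 had 51.0, 111, 80.1, 54.7 and 0 CPM. The circle of Willis samples had 25.4, 35.5, 12.7, 15.0 and 28.0 CPM. Like P4ha1, it was above every circle of Willis sample in aneurysms 4 to 7 and below all of them in aneurysm 8. Means were 59.3 ± 40.8 and 23.3 ± 9.46 CPM (SD, n = 5 each), with a log2 fold change of 1.35 (standard error 1.10, 95% interval -0.92 to 3.61, edgeR adjusted p = 0.999). The exact permutation p (two-sided) was 0.984 over all samples and 0.00794 without aneurysm 8, where the edgeR adjusted p was 0.631. With aneurysms 5 and 8 both left out, P4ha1 and Loxl2 were still above every circle of Willis sample in 3 of 3 aneurysms (exact permutation p = 0.0179 for each, the smallest that 3 against 5 can give), as were 3.02% of the genes tested. This held in gene reads and not in exon reads, where aneurysm 4 had 0 reads for both genes and the exact permutation p was 0.393 for P4ha1 and 0.268 for Loxl2. The exon reads of Loxl2 were 0, 950, 80, 186 and 0 in the aneurysms and 0, 3, 9, 4 and 0 in the circle of Willis (exact permutation p = 0.246, and 0.111 without aneurysm 8).

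Loxl3 (chr4:113866803-113883477, Rnor6), a related oxidase, was barely read. It had 2, 83, 1, 0 and 0 reads in the aneurysms and 0, 3, 17, 2 and 0 in the circle of Willis. Its only exon reads were 11 in aneurysm 5, so that a difference between the groups was not detectable at this depth. Over the 10 exact permutation tests on gene reads and the 10 on exon reads, none gave a p under 0.05 with all samples in.

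The 5 lesions differed widely among themselves. The 10 genes together took 273, 1446, 563, 412 and 7.91 CPM in aneurysms 4 to 8. In the circle of Willis samples they took 138, 113, 178, 228 and 110 CPM. Aneurysms 4 to 7 were above every circle of Willis sample in this sum and aneurysm 8, with 10 reads on the 10 genes, was below every one. Of the 8 tested genes, 7 were highest of all 10 samples in aneurysm 5, as were 10.3% of all genes tested (20.3% were highest in it among the aneurysms). In aneurysm 8, 6 of the 8 had 0 reads, as did 30.2% of all genes tested. No gene of the 10 had groups that did not overlap, where 2.04% of all genes tested did (0.499% with every aneurysm above). Aneurysm 5 alone gave from 41.7% (P4ha2) to 98.7% (Plod1) of each gene's aneurysm reads.

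**Figure D3:**
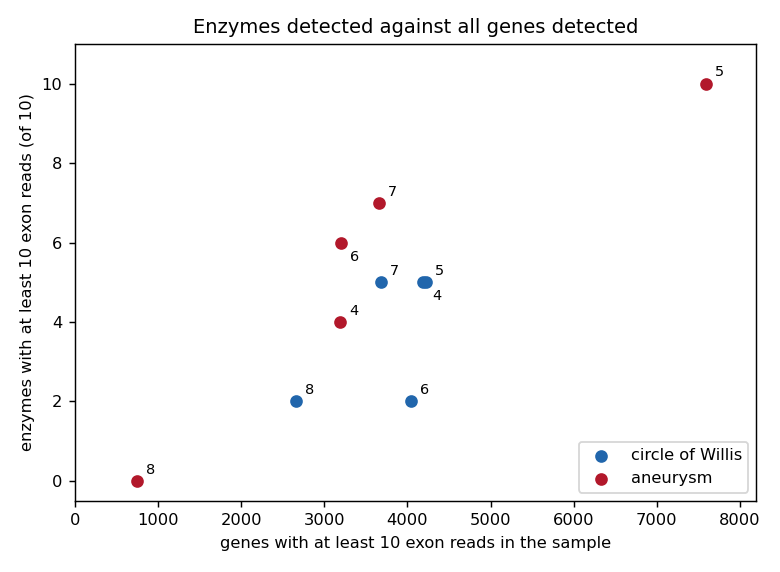
Number of the 10 enzymes with at least 10 exon reads (vertical axis) against the number of all genes with at least 10 exon reads (horizontal axis) in each sample, circle of Willis in blue and aneurysms in red. Aneurysm 5, with 7590 genes, held all 10 enzymes, aneurysm 8, with 743 genes, held 0, and the other samples held 2 to 7.

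In the plot of detected genes, the number of enzymes with at least 10 exon reads followed the number of genes only at the ends. Aneurysm 5, the broadest library, had all 10, and aneurysm 8, the narrowest, had 0. Between these ends, aneurysms 4, 6 and 7 had 4, 6 and 7 enzymes among 3190, 3203 and 3660 genes. The circle of Willis samples had 5, 5, 2, 5 and 2 among 4187, 4225, 4044, 3676 and 2664 genes. Aneurysms 6 and 7 thus held more of the enzymes than any circle of Willis sample while holding fewer genes than 4 of the 5. The part of library breadth in the levels of the enzymes was not tested.

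The kind of read also differed between the groups. Over the 10 genes, the circle of Willis samples had 3481 gene reads of which 60.1% lay in introns, while 39.5% of the reads of all genes did. The aneurysms had 23182 gene reads of which 21.4% lay in introns, against 43.5% for all genes. Intron reads made up 96.8% of the Loxl2 reads in the circle of Willis and 48.2% in the aneurysms, and for P4ha1 the shares were 86.7% and 28.8%. For Serpinh1 they were 79.7% and 19.9%. P4hb and Pcolce were read almost wholly in exons in both groups, with 0.353% and 5.71% intronic in the circle of Willis. These shares come from reads summed over samples, and aneurysm 5, with 8.26% of its reads on the 10 genes in introns, weighs most in the aneurysm sum. The other aneurysms had 84.3, 32.5, 33.6 and 100%, and the circle of Willis samples 68.7, 73.6, 41.0, 58.1 and 61.9%, so that aneurysms 5, 6 and 7 were below every circle of Willis sample and aneurysms 4 and 8 above.

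**Figure D4:**
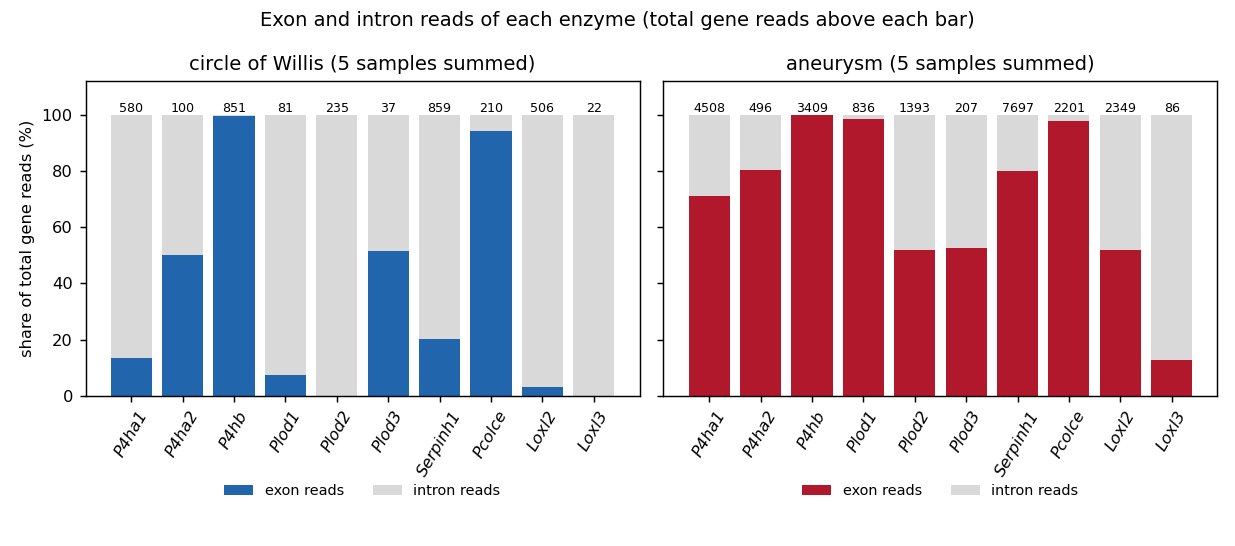
Share of each enzyme's total gene reads that lay in exons (coloured) or introns (grey), in percent, with the reads of the 5 circle of Willis samples summed on the left, those of the 5 aneurysms summed on the right, and the number of gene reads above each bar. The exon share was low for P4ha1, Plod1, Plod2, Serpinh1, Loxl2 and Loxl3 in the circle of Willis, and high in both groups for P4hb and Pcolce.

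Taken as the mean of single samples, which weighs each alike, exon reads were 51.2 ± 47.7% of the P4ha1 reads in lesions and 14.2 ± 16.8% in circle of Willis samples (SD, n = 5 each, two-sided exact permutation p = 0.167). For Serpinh1 they were 45.9 ± 37.5% and 59.1 ± 44.1% (n = 5 each, exact permutation p = 0.627), the opposite order to that of the summed reads. Both samples numbered 8 enter these means with 1 Serpinh1 read each, at 0% in the aneurysm and 100% in the circle of Willis. The order of the means thus rests in part on single reads. Reads across exon junctions were sparse. Serpinh1 had 6164 exon reads in the aneurysms and 0 across junctions, whereas Loxl2 had 513 junction reads. A lack of junction reads was common, since 48.6 to 75.9% of genes with at least 100 exon reads in a sample had none. That share was not taken at the depth of Serpinh1, so it does not tell whether 0 is usual there.

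Exon reads per length allow the genes to be ordered by level. In the aneurysms the mean exon CPM per kb of exon was 77.5 ± 91.2 for Serpinh1 and 44.5 ± 45.6 for P4ha1 (SD, n = 5). Pcolce (32.2 ± 46.5) and P4hb (32.1 ± 53.6) followed, then Loxl2 at 15.0 ± 18.8. P4ha2 (6.57), Plod1 (5.69), Plod2 (5.21), Plod3 (1.15) and Loxl3 (0.0699) had the lowest levels on this scale. Every one of these SDs among the leading 5 exceeded its mean. They measure the spread between samples and not the difference between genes within a sample, and the order was not tested. In the circle of Willis the order was led by P4hb (30.8 ± 29.9 exon CPM per kb), then Pcolce (12.5 ± 11.1) and Serpinh1 (7.52 ± 5.52), with P4ha1 at 2.96 ± 2.76.

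In the rest of the collagen-making pathway no gene passed the same test, and Sparc, Lox and Ppib passed in fits that kept other reads or genes. Of 26 listed genes (prolyl 3-hydroxylases, peptidyl-prolyl isomerases, collagen glycosyltransferases, propeptide proteinases, other lysyl oxidases and export factors), 24 were in the table and 14 were tested. None passed at an adjusted p under 0.05 by edgeR and 1 did by DESeq2, 2 had an unadjusted p under 0.05, 11 log2 fold changes were positive and 3 negative, and the median was 1.09. Sparc, a collagen-binding matricellular protein, had 134, 4586, 2302, 1187 and 9.49 CPM in the aneurysms and 64.1 to 176 CPM in the circle of Willis. Its log2 fold change was 3.73 (standard error 0.95, edgeR adjusted p = 0.143) over gene reads and 3.39 (standard error 0.91, adjusted p = 0.0403) over exon reads. Lox, the lysyl oxidase that 3-aminopropionitrile inhibits, had 48, 1995, 620, 889 and 0 exon reads in the aneurysms and 0 in every circle of Willis sample, where 76 intron reads in a single sample were all that was seen. Its log2 fold change over gene reads was 5.14 (standard error 1.68, edgeR adjusted p = 0.418), and it passed without the filter on low counts in gene reads (adjusted p = 0.0146) and in exon reads (adjusted p = 0.00379). Ppib, a peptidyl-prolyl isomerase of collagen folding, had 0, 632, 1013, 10 and 0 reads in the lesions and at most 5 in any circle of Willis sample. It was too sparse for the filter and passed in gene reads without it. The fits to exon reads or without the filter had 23752 or more degrees of freedom, against about 27 in the main fit. Their p-values thus rest almost wholly on a spread shared over genes and not on each gene's own scatter. None of the 10 enzymes passed in any of these fits. Adamts14, a procollagen N-proteinase, had 2.79 (edgeR adjusted p = 0.889), and P3h3, a prolyl 3-hydroxylase family member, had 1.20.

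Genes for general folding in the endoplasmic reticulum and for the response to low oxygen, which P4ha1, P4ha2 and Plod2 are known to join, were read as well. Of 12 folding genes, 9 were tested and 0 passed, with 8 positive, a median log2 fold change of 1.09 and 1 unadjusted p under 0.05, that of the chaperone Calr (2.28, standard error 0.77, edgeR adjusted p = 0.475). Of 12 low-oxygen genes, 7 were tested, 0 passed and 0 had an unadjusted p under 0.05, with 6 positive and a median of 1.76. Ldha, a glycolytic enzyme, had a log2 fold change of 2.25 and Ndrg1 one of 1.88. Aneurysm 5 was highest in the summed level of both lists (1173 CPM for folding and 860 CPM for low oxygen), as it was for the enzymes.

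Relative to the main fibrillar collagens, Col1a1 and Col3a1, which had log2 fold changes of 5.97 and 6.21, enzyme reads were fewer in 4 of the 5 lesions than in any circle of Willis sample. The 10 enzymes together had 212.9, 7.38, 3.99, 10.7 and 2.70% as many reads as Col1a1 plus Col3a1 in aneurysms 4 to 8. In the circle of Willis samples the figures were 105.9, 78.5, 186.9, 108.4 and 1453%. Aneurysm 4 was above all but sample 8 of that group, which had 17 collagen reads. For Serpinh1 alone, reads per Col1a1 read were 0.0268, 0.0297 and 0.0230 in aneurysms 5, 6 and 7 and 0.0714 to 0.412 in the circle of Willis, with 1.46 in aneurysm 4 and 0.00479 in aneurysm 8. These ratios were looked at after the values were seen and rest largely on the collagen reads, so no test was made of them.

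**Figure D5:**
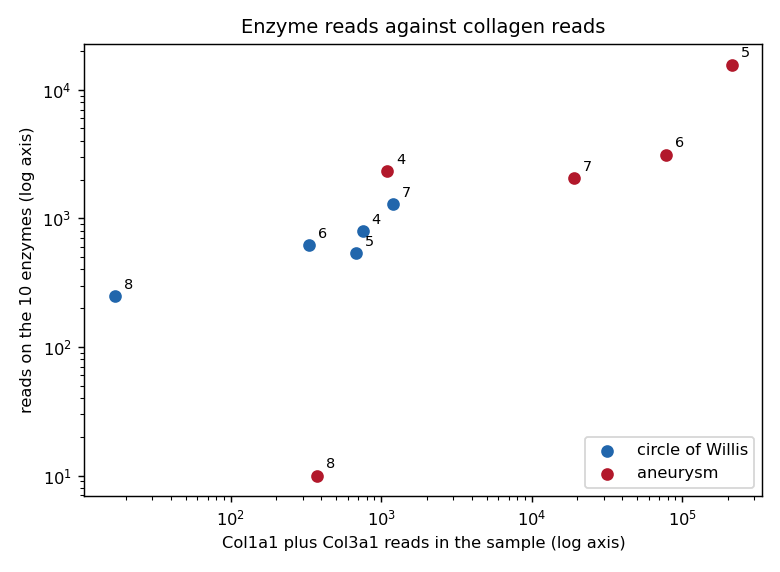
Gene reads on the 10 enzymes (vertical log axis) against gene reads on Col1a1 plus Col3a1 (horizontal log axis) in each sample, circle of Willis in blue and aneurysms in red. Aneurysms 4 to 7 had 2331, 15678, 3121 and 2042 enzyme reads, above every circle of Willis sample (247 to 1290), and aneurysm 8 had 10.

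Across the 10 samples, the 28 pairs among the 8 tested genes had Pearson correlations of log2 CPM from 0.128 to 0.803, with a median of 0.55. The points share library depth and the low counts of aneurysm 8, without which the range was -0.13 to 0.841 and the median 0.322. Without aneurysm 5 the median was 0.388. Over the same samples, the mean of the 8 was most like Ahnak (r = 0.957), NEWGENE_68440 (r = 0.923) and Rps28 (r = 0.923) among 7607 other genes, and without aneurysm 8 these values were 0.893, 0.828 and 0.804. Col1a1 had r = 0.527 with that mean and ranked 1682 of these genes, with r = 0.728 without aneurysm 8 and 0.276 without aneurysm 5. Loxl2 (r = 0.900) and P4ha1 (r = 0.839) were the closest to the mean they form part of.

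Markers of the cell types in the samples moved in part with the enzymes. The fibroblast list summed to 148 to 489 CPM in the aneurysms and 129 to 331 CPM in the circle of Willis. In it, 6 of 8 genes were tested, 3 with positive and 3 with negative log2 fold changes (median 0.13, lowest -3.69 for Mfap5). None of the list's tested genes passed or had an unadjusted p under 0.05 by edgeR. Dcn, its defining gene, had 20.5 to 142.5 CPM in the lesions and 17.0 to 58.6 CPM in the circle of Willis. Lum, a fibroblast proteoglycan of the same list named after its values were seen, was too sparse for the filter, with 150, 2822, 965, 185 and 0 reads in the lesions and at most 2 in any circle of Willis sample. It was higher by edgeR without the filter, in gene reads (adjusted p = 4.9e-06) and in exon reads (adjusted p = 0.0481). These p-values too rest almost wholly on a spread shared over genes, while Lum itself ran from 0 to 260 CPM in the lesions. The summed list was at its highest in aneurysm 8 (489 CPM), where the enzymes were near 0, and next in aneurysm 5 (464.5 CPM), where they were highest. The CPM of aneurysm 8 are raised by its TMM factor of 0.282, and only 1 of its 130 Dcn reads lay in an exon. The smooth muscle list summed to 289 to 704 CPM and 392 to 1051 CPM (7 of 7 tested, none past either threshold, median -0.33). The macrophage list summed to 174, 4142, 5941, 999 and 134 CPM in aneurysms 4 to 8 and to 43.2 to 149 CPM in the circle of Willis. In this list 8 of 10 were tested, 6 with positive and 2 with negative log2 fold changes, and 1 was higher by the test. Its Cd68 had 3550, 2784 and 246 reads in aneurysms 5, 6 and 7, at most 3 in the other lesions, and 0 in 3 of 5 circle of Willis samples. Neuron markers (7 of 8 tested, none passed, 5 lower at an unadjusted p under 0.05, median -3.74) summed to 3.97 to 164 CPM in lesions against 129 to 860 CPM in circle of Willis samples. For astrocyte markers the sums were 4.75 to 247 CPM and 473 to 1005 CPM. Endothelial markers summed to 9.49 to 92.7 CPM and 76.7 to 146 CPM. Leptomeningeal and choroid plexus markers reached 10810 CPM in aneurysm 4 and lay between 502 and 834 CPM in the other lesions, against 2882 to 11480 CPM in the circle of Willis. Markers of oligodendrocytes and Schwann cells summed to 97.9 to 601 CPM and 30.9 to 183 CPM. The part of these cell types in the levels of the enzymes was not tested.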

How the data were processed

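The authors sequenced poly(A)-selected RNA of 5 rupture-prone aneurysms and 5 remaining circle of Willis samples and mapped the reads to Rnor6 with CLC genomics workbench (version 11). The sources used here do not give the strand setting, the handling of duplicates or the annotation release. The deposited counts are total gene reads, which equal exon plus intron reads, total exon reads, and unique and junction reads, and the authors had not normalized them. The deposited normalized values and the authors' own comparison (p-values and fold changes) were not used. The table held 0 sample columns that could not be matched.

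The 10 genes were read by symbol from fits over the whole table. Of the genes, 7615 passed filterByExpr on total gene reads (count minimum 10), which were scaled by TMM and compared by the quasi-likelihood test of edgeR (4.0.16) in R (4.3.3), with p-values adjusted after Benjamini-Hochberg and called under 0.05. Depth was 3017269 to 7352626 gene reads a sample. Every pair of samples within a group differed beyond sampling noise (lowest chi-square over its degrees of freedom 55.8), so all were kept. CPM were computed with TMM-scaled sizes of the filtered libraries, and a prior count of 2 was added before log2. Single genes were compared by exact permutation tests over samples. Fits were tested on simulated counts. Alternatives were DESeq2 (1.42.0), limma-voom (3.58.1), other scalings and filters, exon and unique reads, the sample number as a block, and leaving out each sample (19 set out at first and 2 added after seeing the data). Promoters came from RefSeq tables (GRCr8). Plots were drawn with matplotlib (3.10.9).

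The members and the 12 other gene lists were chosen with earlier results of these data known. Named were all 10 members, up to 4 genes of lowest p of each list described, the markers Acta2, Myh11, Dcn and Cd68, and the 3 genes most like the members' mean. Ppib and Lum fall outside this rule and were named after their values were seen. Ratios to collagen and exon shares were chosen after the values were seen. Pecam1, Col1a2, Crtap and Pcolce2 were not analysed here.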

Additional observations from a re-analysis of the deposited data

Results flagged for a closer look

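In 7 of the 20 gene-by-group sets of 5 samples, a single sample stood apart from the other 4 by Dixon's ratio of gap to range. For independent normal values chance gives about 1 in 20, but these levels are skewed and share libraries. Over all genes tested, 18.7% of the 15230 such sets had a sample apart, and over the 8 tested enzymes 18.8% (3 of 16), so that the enzymes stood at the background. Of the 7, 5 were aneurysm 5. Plod1 had 76.1 CPM in aneurysm 5 and 0.180 to 0.938 CPM in the other aneurysms. Loxl3 had 7.66 CPM there against at most 0.235 CPM. P4hb had 287 CPM there against at most 33.1 CPM, Pcolce 172 CPM against at most 37.0 CPM, and Plod3 14.0 CPM against at most 3.75 CPM. Among the circle of Willis samples, Plod1 had 10.2 CPM in sample 5 against at most 3.0 CPM in the rest, and Loxl3 had 4.91 CPM in sample 6 against at most 0.635 CPM.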

How the results depend on the processing

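Of the 8 enzymes tested, 0 passed, as in every alternative run (4 to 10 tested). The count of all genes called was 12. It was 130 with no low-count filter, 28 with 10 reads in at least 3 samples, 2 with upper-quartile or library-size scaling, 132 by DESeq2, 30 from unfiltered exon reads and 22 without aneurysms 5 and 8, and 1 to 33 when single samples were left out (1 without circle of Willis 8, 2 without aneurysm 5 or 6 or circle of Willis 6 or 7, 4 without circle of Willis 5, 33 without aneurysm 8). Other collagen biosynthesis genes called were 0, then 1 from exon reads with the filter (Sparc) or without it (Lox), 3 unfiltered (Lox, Ppib, Sparc), 1 by DESeq2, 1 without aneurysms 5 and 8, and 0 to 1 with single samples left out (1 without aneurysm 8 or circle of Willis 4). The exon-read and unfiltered fits took almost all of their spread from a value shared over genes. Exact permutation tests under 0.05 numbered 0 of 10 for gene reads, 3 without aneurysm 8 (P4ha1, Loxl2, Serpinh1) and 2 without aneurysms 5 and 8 (P4ha1, Loxl2), and 0 for exon reads, 1 in each of these (Serpinh1). The share of all genes under 0.05 by this test was not computed. These counts therefore cannot tell the enzymes from other genes. P4hb had log2 fold changes of -1.32 with the replicate block, -1.55 without aneurysm 5 and -1.12 without aneurysms 5 and 8. Plod1 had -0.55 by limma-voom, -0.77 with the block, -2.67 and -2.79 in those fits. Loxl3 had -0.27, -0.20, -2.96 and -2.76 in the same order. Plod3 had -0.14 without aneurysm 5 and Pcolce -0.25 by limma-voom. With single samples left out, the log2 fold changes ran from -1.55 to 1.26 for P4hb, -2.67 to 3.16 for Plod1, -0.14 to 2.44 for Plod3 and -2.96 to 2.64 for Loxl3. The median log2 fold change of all genes was 0.13, but 0.40 by DESeq2, -0.32 by limma-voom and -0.35 with the block, when the 8 enzymes had medians of 1.73, 1.15 and 1.14. The cause of these changes was not tested. Samples of the same number showed little likeness (correlations of same-numbered deviations -0.024 to 0.136, own number best for 2 of 5). In libraries that scatter this widely, such values cannot tell whether a number marks an animal. The block gave 17 calls. DESeq2 gave no adjusted p for P4ha2 and Plod3. Intervals cover the spread between these samples, and genes with few reads in most samples, Plod1, Plod3 and Loxl3 above all, cannot be compared at this depth.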
